A study of Mus musculus with 2 samples.

Results

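The gene desert regions described here are the open chromatin regions of mouse megakaryocytes that lie farthest from protein-coding genes. A region was a member where it was found in both replicates on chromosomes 1 to 19, where its strongest summit (the position of the highest signal) lay in no annotated gene body, and where that summit was more than 200 kb from the nearest protein-coding 5′ end. The rule used positions and the overlap of the replicates. Beyond the peak call, the level of signal only chose which summit placed a region. Of 67991 shared regions, 1969 were members (2.90%). Another 40706 had their summit in a gene body, 14156 lay outside genes within 20 kb of a protein-coding 5′ end, and 11160 lay outside genes at 20 to 200 kb. The last group was the closest class to compare with.

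Chromatin was profiled by ATAC-seq, in which a transposase cuts accessible DNA and leaves sequencing adapters at the cut. The study held 1 group of 2 biological replicates, each from 50000 primary megakaryocytes of C57BL/6J male adult mice aged 5 to 6 weeks, with no second cell type and no treatment. Both replicates were separate biosamples that carry the same donor record, so an SD over n = 2 measures the spread between these samples only. Only peak lists were used, with no read counts, so sequencing depth cannot be given, and absence from a list says only that no peak was called there. The value of each region is its fold enrichment over the local background, as the authors deposited it, taken from the strongest peak of each replicate in the region.

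Megakaryocytes are the large bone marrow cells that release platelets. Regulatory DNA that controls a gene can lie very far from the start it acts on, and long stretches without coding genes often flank genes for developmental and lineage transcription factors. Such distal elements are bound by factors that recognise short sequences. Factors of the ETS, RUNX, GATA, C/EBP and AP-1 families act at many distal elements of blood cells, and CTCF is the factor that marks the anchors of chromatin loops. Immunoglobulin and T cell receptor loci are a special kind of long interval: they hold large arrays of variable (V) segments, which lymphocytes join by recombination, and which the GENCODE annotation does not list as protein-coding.

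The windows below are examples of desert summits as sequence, chosen for their motifs. Each is 201 bases long, centred on the summit, read on the plus strand of mm10 (GRCm38) from RefSeq's sequence of that build, and drawn from a region without a match elsewhere in the genome. Capitals mark a match to the named motif, written as it reads on the plus strand, so a match on the minus strand shows as the reverse complement. The first 6 are among the strongest members with that motif, and the last 2 come from the immunoglobulin heavy chain locus (Igh), where capitals mark the recombination signal heptamer CACAGTG beside a V segment in the first and the CTCF motif in the second.
CTCF, upstream of Arid1b, chr17:4778280-4778480: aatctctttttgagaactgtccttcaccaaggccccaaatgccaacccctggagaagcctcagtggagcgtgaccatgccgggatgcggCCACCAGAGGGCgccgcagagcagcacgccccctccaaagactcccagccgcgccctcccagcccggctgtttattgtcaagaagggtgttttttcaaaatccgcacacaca
RUNX, downstream of Rpl36a-ps1, chr14:98605875-98606075: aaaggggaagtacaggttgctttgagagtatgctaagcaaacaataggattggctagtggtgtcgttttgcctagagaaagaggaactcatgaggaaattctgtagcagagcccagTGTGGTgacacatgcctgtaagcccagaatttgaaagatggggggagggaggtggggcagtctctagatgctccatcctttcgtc
PU.1-type ETS, upstream of Id2, chr12:25492883-25493083: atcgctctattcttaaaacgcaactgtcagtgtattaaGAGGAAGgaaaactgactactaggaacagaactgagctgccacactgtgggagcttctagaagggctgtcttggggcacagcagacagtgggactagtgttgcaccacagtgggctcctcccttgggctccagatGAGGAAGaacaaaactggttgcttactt
ETS, upstream of Tbc1d5, chr17:51382652-51382852: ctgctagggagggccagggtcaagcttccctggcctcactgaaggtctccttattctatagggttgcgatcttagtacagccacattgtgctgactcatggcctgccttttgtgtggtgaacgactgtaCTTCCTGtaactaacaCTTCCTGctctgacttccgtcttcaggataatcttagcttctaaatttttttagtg
AP-1, upstream of Atp2b1, chr10:98494466-98494666: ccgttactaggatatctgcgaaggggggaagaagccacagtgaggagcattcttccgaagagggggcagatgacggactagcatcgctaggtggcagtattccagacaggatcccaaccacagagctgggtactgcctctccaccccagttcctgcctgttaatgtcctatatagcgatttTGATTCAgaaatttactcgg
GATA, upstream of Pabpc4l, chr3:48100956-48101156: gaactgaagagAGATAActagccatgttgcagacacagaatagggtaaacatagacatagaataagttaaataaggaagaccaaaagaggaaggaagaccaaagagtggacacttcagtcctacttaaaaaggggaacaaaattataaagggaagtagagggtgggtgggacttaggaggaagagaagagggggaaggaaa
heptamer past Ighv1-47, chr12:114990987-114991187: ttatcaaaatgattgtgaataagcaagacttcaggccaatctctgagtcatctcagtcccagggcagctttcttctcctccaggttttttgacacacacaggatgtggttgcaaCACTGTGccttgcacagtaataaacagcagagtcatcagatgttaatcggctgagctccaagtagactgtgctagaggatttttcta
CTCF in Igh, before Ighv1-9, chr12:114587319-114587519: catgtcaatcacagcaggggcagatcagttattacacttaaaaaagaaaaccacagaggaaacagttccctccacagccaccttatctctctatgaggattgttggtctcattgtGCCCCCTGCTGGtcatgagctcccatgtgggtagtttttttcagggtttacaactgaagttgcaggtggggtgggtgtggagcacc

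The CTCF window upstream of Arid1b, which encodes a subunit of a chromatin remodelling complex, had a fold enrichment of 16.1 in replicate 1 and 17.6 in replicate 2. The window downstream of Rpl36a-ps1, with a RUNX match near its middle, had 17.5 and 21.01. The region upstream of Id2, a gene for a helix-loop-helix inhibitor of transcription factors, had 18.5 and 19.6, and its window holds 2 matches to the PU.1-type motif. The region upstream of Tbc1d5 had 17.5 and 19.1 with 2 ETS matches on the minus strand. Near Atp2b1, a calcium pump gene, the window with an AP-1 match reached 17.5 and 18.8. The window near Pabpc4l, 1653 kb from that gene's 5′ end, had 17.0 and 19.3 with 1 GATA match at its edge. In Igh, the window past Ighv1-47 had 14.6 and 15.5, and the one before Ighv1-9 had 12.1 and 11.97. Of these windows, the one near Rpl36a-ps1 had the widest gap between replicates. Repeats covered 60.7% of that window and 66.7% of the one near Pabpc4l, while windows made up mostly of repeats were 3.81% of all members.

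The label of a gene desert did not hold for every member. Of the 1969 members, 159 lay inside antigen receptor loci, where the next coding gene is far away but V segments lie in between. Igh on chromosome 12 held 91 of them, the T cell receptor alpha and delta locus (Tcra/Tcrd) on chromosome 14 held 63, the immunoglobulin kappa locus held 4 and the T cell receptor gamma locus held 1. The other 1810 members lay outside these loci. By genes of every annotated type, 160 members lay within 1 kb of a 5′ end: 96 at antigen receptor segments, 32 at long non-coding genes, 30 at pseudogenes and 2 at miRNA genes. Over all members the median distance to the nearest 5′ end of any gene type was 37.1 kb, and only 75 regions stayed beyond 200 kb when genes of every type counted. The members are therefore far from coding starts by rule, and most are not far from every annotated transcript.

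The labelled cell type was checked at promoters, with a shared region within 500 bp of the 5′ end taken as an open promoter, which 55.2% of 20780 coding genes had. Of 16 megakaryocyte genes, 6 had one: Nfe2 (mean fold enrichment 9.89), Itgb3 (7.62), Itga2b (6.31), Gfi1b (6.09), F2rl2 (5.88) and Pf4 (4.56). Those without one included Gp1ba, Gp1bb, Gp9, Gp5, Gp6, Vwf, Selp, Clec1b and Treml1. Of 16 neutrophil genes, 13 had one, from 3.15 at Prtn3 to 11.8 at Mmp8, while Mpo, Elane and Mmp9 had none. The megakaryocyte share was below that over all coding genes and the neutrophil share above it. The part of other cell types in the desert regions was not tested.

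The strength of desert regions was a little below that at 20 to 200 kb in each replicate. Their number per length of DNA was lower. Their median fold enrichment was 6.81 in replicate 1 and 7.68 in replicate 2 (mean of both replicates per region: median 7.25, range 2.56 to 29.4). The regions at 20 to 200 kb had 7.13 and 7.84, and all shared regions had 7.29 and 7.71. The desert median was below both other medians in each replicate, by less than the SD of 0.61 between its own replicates. That SD holds a shift towards replicate 2 that the other 2 groups shared, so it does not measure the spread of the class difference. Of the members, 61 (3.10%) reached 15-fold, against 4.18% of the regions at 20 to 200 kb and 5.71% of all shared regions. At the low end, 26 members (1.32%) were under 3.5-fold, against 1.62% and 2.78%. Widths were alike, with a median of 438 bp in deserts and 437 bp at 20 to 200 kb. Of the 1969 members, 3 were 1500 bp or wider, against 24 of the 11160 regions at 20 to 200 kb and 546 of all 67991 shared regions.

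The number of regions per length of DNA fell with distance while their strength did not. Outside gene bodies and assembly gaps, 485.0 Mb lay beyond 200 kb and held 4.06 shared regions per Mb, against 21.8 per Mb at 20 to 200 kb and 59.6 per Mb within 20 kb. Within deserts the count fell from 8.38 per Mb at 200 to 300 kb (940 regions) to 4.35 at 300 to 500 kb (622 regions), 2.10 at 500 to 1000 kb (325 regions) and 1.09 beyond 1000 kb (82 regions). Counted in each replicate alone, the 200 to 300 kb bin held 9.76 and 10.4 regions per Mb and the bin beyond 1000 kb held 1.46 and 1.45, so the bins did not overlap between replicates. Median fold enrichment was 6.98 at 200 to 300 kb (SD 0.52, n = 2), 7.46 at 300 to 500 kb (SD 0.81), 7.32 at 500 to 1000 kb (SD 0.61) and 8.03 beyond 1000 kb (SD 0.63). The medians of the first 3 bins differed by less than these SDs, though the bin at 200 to 300 kb was the lowest in each replicate. The median beyond 1000 kb was above that at 200 to 300 kb in each replicate (7.69 against 6.68 in replicate 1, 8.58 against 7.41 in replicate 2). Receptor loci weighed most in the far bins: 238 of the 325 regions at 500 to 1000 kb and 52 of the 82 beyond 1000 kb lay outside them.

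**Figure D1:**
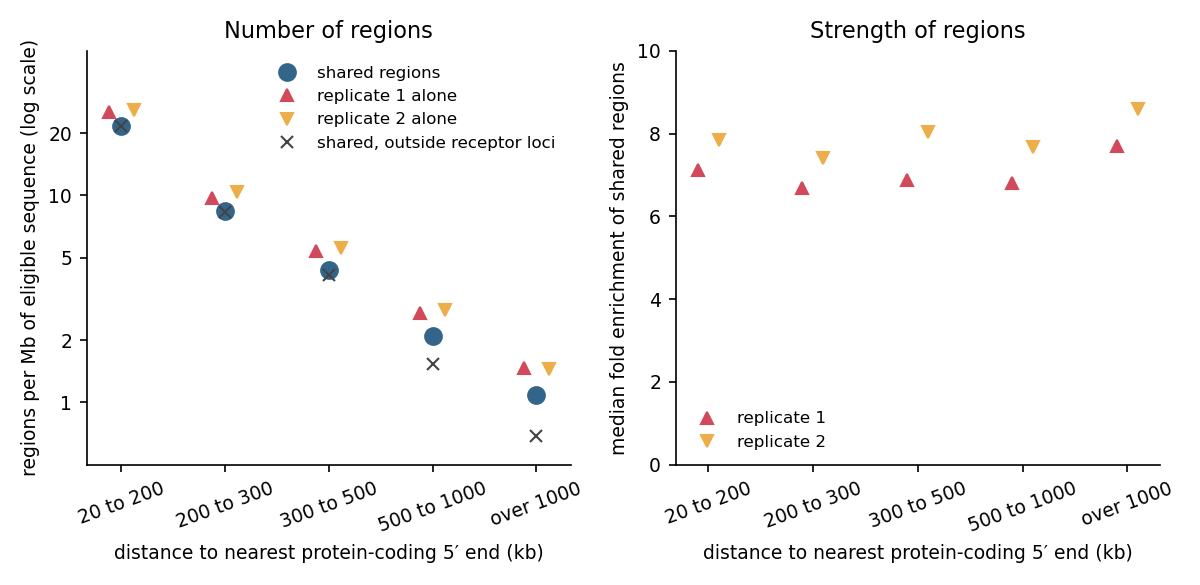
Left, shared regions per Mb of eligible sequence (log axis) in 5 distance bins, with each replicate alone (triangles) and with the shared regions outside receptor loci (crosses). Right, median fold enrichment of the shared regions in each replicate. The count fell from 21.8 to 1.09 per Mb while the medians stayed between 6.68 and 8.58.

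The replicates found mostly the same desert regions. By its own summits, replicate 1 had 2398 desert regions of 78004 (3.07%) and replicate 2 had 2504 of 79861 (3.14%). Of these, 83.1% and 79.6% overlapped a region of the other replicate (mean 81.3%, SD 2.52, n = 2), against 89.3% and 86.2% over regions of every class (mean 87.8%, SD 2.19). The desert regions without a partner, 405 in replicate 1 and 512 in replicate 2, were weaker: their median fold enrichment was 3.85 and 4.39, against 6.81 and 7.68 for those with one. None of the 405 exceeded 7.997 and none of the 512 exceeded 9.60. Summits of the shared members lay a median of 9 bp apart between replicates, as at 20 to 200 kb.

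Support in the stricter lists was lower in deserts. A conservative list that the authors filtered on the irreproducible discovery rate (IDR) from the pooled samples overlapped 1511 members (76.7%), against 82.9% of all shared regions and 80.4% of those at 20 to 200 kb. The IDR lists of both samples overlapped 818 members (41.5%), against 53.3% of all shared regions and 48.0% at 20 to 200 kb. Over the 4 distance bins the first share lay between 75.1% and 78.0%, and it was 76.8% beyond 1000 kb.

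Most members were somewhat stronger in replicate 2. On the log2 scale, replicate 2 exceeded replicate 1 by a median of 0.14 in deserts (SD over members 0.26), 0.09 at 20 to 200 kb and 0.05 over all shared regions. Of the members, 1428 (72.5%) were higher in replicate 2, against 66.4% at 20 to 200 kb and 58.9% of all shared regions. Past a 1.5-fold difference, 128 members were higher in replicate 2, against a background of 3.22% of all shared regions, and 4 were lower, against 0.306%. In either direction it was 132 members (6.70%), against 3.52%. With 1 sample on each side there is no test of these shares. Among members without a match elsewhere, the 3 with the highest ratio were near Nek10 (2.96 and 6.86), Gpc5 (2.96 and 6.58) and Kctd12 (3.26 and 7.13), and the 3 with the lowest were near Lcorl (7.40 and 4.39), Inhba (6.22 and 3.84) and Pcmtd1 (4.74 and 3.02). The ratio moved with base composition in every class. Members of up to 40% GC had a median log2 ratio of 0.17 and those above 55% GC had 0.02, while all shared regions in the same bins had 0.15 and −0.02. In the bins between, members had the higher ratio: 0.13 against 0.09 for all shared regions at 45 to 50% GC, and 0.14 against 0.06 at 50 to 55% GC. Members had a median of 46.3% GC against 50.7% over all shared regions, and the part of GC content in the ratio was not tested. The replicates ranked the members alike, with a Spearman correlation of 0.89 across the 1969 regions, which are not independent of each other.

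**Figure D2:**
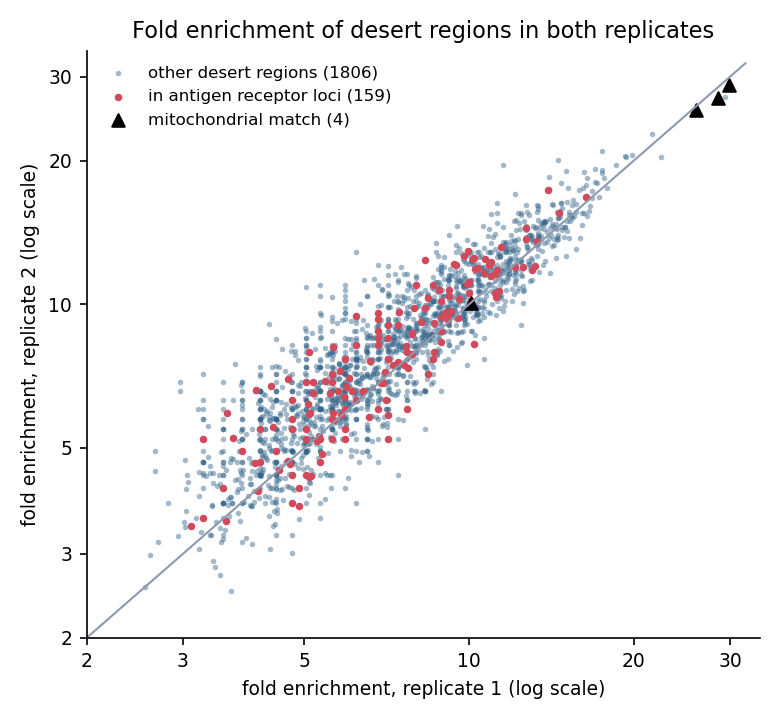
Fold enrichment of the 1969 members in replicate 1 (x axis) and replicate 2 (y axis), both on log scales, with the line of equal values. Red points are the 159 members in antigen receptor loci and black triangles the 4 with a match to mitochondrial DNA, of which 3 lie at the top right. More points lie above the line (1428) than below it.

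Of the 10 strongest members, 6 had sequence that also exists elsewhere in the genome or in mitochondria. The highest, 942 kb downstream of the 5′ end of Nxph1 at chr6:9889881-9890220, had fold enrichments of 29.9 and 28.9, and its window matched mitochondrial DNA over 201 bases at 97.5% identity. Nuclear copies of mitochondrial DNA are remnants of past insertions, and the part of reads from mitochondria in these values was not tested. The region at chr5:60042655-60043141, 1766 kb from G6pd2, had 28.5 and 27.1 and a mitochondrial match of 98.0%. The one at chr12:97061379-97061849, 1198 kb from Galc, had 25.99 and 25.5 and was identical to mitochondrial DNA over 201 bases. The last such member, near Tyrp1, had 10.1 in both replicates. These 4 members were 0.203% of the deserts, against 0.0294% of all shared regions (20 regions).

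Pseudogene copies came next. The region at chr8:20122126-20122645, with 29.4 and 27.2, lay 114 bp from the start of the processed pseudogene Gm21769, had 4 other copies in the genome and held a CTCF match. The member at chr1:94469845-94470225, nearest to the coding gene Pdcd1 at 417 kb, had 22.4 and 20.4 and lay 84 bp from the start of the processed pseudogene Gm7895. The member at chr7:57881128-57881369, nearest to Gabra5 at 371 kb, had 19.8 and 20.6 and lay 21 bp from the start of the processed pseudogene Gm5596. Each of these 2 had 1 other copy. Processed pseudogenes are reverse-transcribed copies of messenger RNA. How the alignment placed reads that match several copies is not given in the sources used here, so a value at such a region cannot be assigned to that copy.

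The other 4 of the 10 strongest had no second copy. The member 636 kb upstream of Epha7, a gene for an ephrin receptor, had 21.6 and 22.7 at chr4:28176739-28177140, and its window of 33.3% GC held none of the motifs searched. A member 2130 kb downstream of the start of Cntnap5b, at chr1:101902152-101902760, had 19.3 and 20.5. The one 350 kb downstream of Gpd2, an enzyme of the glycerol phosphate shuttle, had 19.3 and 20.4, and the one near Rpl36a-ps1 had 17.5 and 21.01. In all, 150 members (7.62%) had another copy over at least 100 bases at 95% identity or more. Inside the receptor loci it was 100 of 159, and outside it was 50 of 1810 (2.76%), against 2.24% of 2232 regions at 20 to 200 kb.

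Distance itself ran up to 2140 kb, at a member upstream of Cdh20 with fold enrichments of 10.4 and 10.7. The other 4 of the 5 farthest were the Cntnap5b member and 3 near G6pd2 at 1766 to 1963 kb, with mean fold enrichments of 27.8, 13.2 and 5.54. Just inside the limit, at 200.1 to 200.4 kb, the 5 nearest members had mean fold enrichments of 13.6, 5.08, 17.6, 5.84 and 13.3. Just outside it, at 199.6 to 199.9 kb, the 5 nearest regions had 5.92, 4.66, 4.54, 5.72 and 6.12. The weakest 3 members were near Maf (2.56 in both replicates), Ndfip2 (2.61 and 2.98) and Setbp1 (2.70 and 3.18).

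Members were gathered in a minority of the intervals that could hold them. Between neighbouring coding genes there were 930 stretches with eligible sequence, of which 421 held a member and 509 held none. The stretches without a member made up 43.6% of the eligible length. The 65 richest stretches together reached 50% of the members, and 53 stretches with 10 or more held 885 of them. A desert region had its next shared region at a median of 8.76 kb, and 53.5% had one within 10 kb, against 5.53 kb and 68.8% for regions at 20 to 200 kb. Even so, 190 members (9.65%) were over 100 kb from the next region, against 1.44%.

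The 2 richest stretches were receptor loci: Adam6a to Zfp386, which holds Igh, with 91 members in 1.99 Mb of eligible sequence, and Olfr1507 to Dad1, which holds Tcra/Tcrd, with 63 in 1.23 Mb. Zeb2 to Acvr2a came next, with 29 members in 2.81 Mb and fold enrichments from 4.11 to 12.6. Zeb2 encodes a zinc finger repressor of blood and neural cells, and Acvr2a an activin receptor. Its strongest member lay 1129 kb upstream of Zeb2 and had 10.9 in replicate 1 and 14.4 in replicate 2. The stretch from Ttll7 to Adgrl2, an adhesion receptor of the latrophilin family, held 26 members in 1.66 Mb, the strongest with 17.3 and 16.7 at 742 kb from Adgrl2. Gje1 to Cited2, which encodes a transcriptional coregulator of blood stem cells, held 24 in 2.01 Mb, the strongest with 15.98 and 13.8 at 1071 kb. Mmadhc to Rnd3, a small GTPase gene, held 24 in only 0.444 Mb, a density of 54.0 per Mb, and its strongest had 17.0 and 18.05.

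The next stretches in order of count were those at Klf4 (23 members), at Nrp1 (21), and at Hlx and Zfat (19 each). Klf4, a zinc finger transcription factor gene, had 21 members upstream at 209 to 602 kb, with 13.3 and 15.8 at the strongest. Nrp1, which encodes the co-receptor neuropilin 1, had 19 members upstream at 210 to 643 kb, up to 15.5. Hlx, a homeobox gene of blood cells, had 12 members downstream at 228 to 337 kb, and all 12 overlapped the conservative list. St3gal1 to Zfat had mean fold enrichments from 5.25 to 16.4. Runx1 to Setd4 was among several stretches that followed with 17 members each. The 5 richest stretches outside the receptor loci held no CTCF match in any member, and the CTCF share over all members outside the loci was 4.53%. At the other end, the 2 longest stretches without any member were Pcdh20 to Pcdh9 (3.98 Mb) and Olfm4 to Pcdh17 (3.95 Mb) on chromosome 14. The first lay between protocadherin genes, which encode adhesion proteins of neurons, and the second had such a gene at its Pcdh17 end only.

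**Figure D3:**
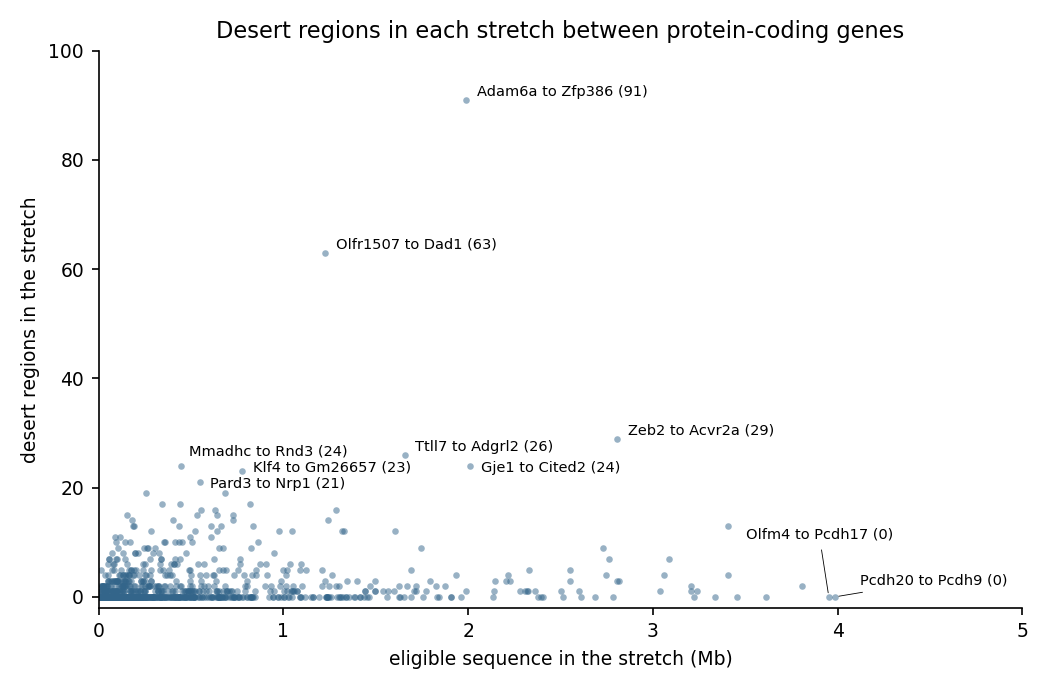
Each point is 1 of the 930 stretches between neighbouring coding genes, by its eligible sequence (x axis, Mb) and the number of desert regions in it (y axis). The Igh stretch (91) and the Tcra/Tcrd stretch (63) stand above the rest, none of which exceeds 29, and the 2 longest stretches hold 0.

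The genes nearest to members were set against 4 gene lists. A list of 60 genes for blood regulators made up 0.289% of coding genes and was nearest to 119 members (6.57% of the 1810 outside receptor loci), against 2.13% of the regions at 20 to 200 kb. A list of 50 developmental regulators was nearest to 50 members (2.76%, against 0.351%) and a list of 50 neural adhesion genes to 31 (1.71%, against 0.0540%). The 1455 olfactory and vomeronasal receptor genes, 7.002% of coding genes, were nearest to 7 members (0.387%). A gene can be nearest to a member only where its flank exceeds 200 kb, so the rule itself selects genes beside long gaps. Nearness does not say which gene a region acts on. Of single genes, 4 at the ends of receptor loci were nearest to many members (Zfp386 to 67, Olfr1507 to 45, Adam6a to 24 and Dad1 to 18), followed outside the loci by Adgrl2 with 30, Cited2 and Zeb2 with 22 each, Klf4 with 21, Nrp1 with 19 and Maf with 18.

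Among the 60 blood regulators, 16 were nearest to a member outside the receptor loci, as were 14 of the 50 developmental regulators and 15 of the 50 neural adhesion genes. Over all 20780 coding genes it was 532 (2.56%). Zeb2 led with 22 (229 to 1545 kb), followed by Maf with 18 (201 to 310 kb). Maf, a basic leucine zipper factor of macrophages and lymphocytes, had 15 of its members downstream, with values of 12.3 and 15.5 at the strongest. Runx1, which is needed for blood stem cells and for megakaryocyte maturation, had 12 members, all upstream at 203 to 382 kb, and fold enrichments from 4.10 to 10.9. Its strongest member, at chr16:93028444-93029135, had 11.4 in replicate 1 and 10.3 in replicate 2 and itself held a RUNX match. Bcl11a, a repressor of fetal globin genes, had 10 within 274 to 319 kb, the strongest with 14.1 and 14.0. Myc, the growth regulator, had 10 at 397 to 900 kb, the strongest downstream with 13.001 and 12.5.

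The remaining regulators had fewer members. Foxo1, a factor of stem cell quiescence, had 8 (5.56 to 14.3), and Klf6 had 7 (4.83 to 14.2). Mef2c, a factor of megakaryocyte and lymphoid genes, had 6 at 211 to 574 kb (4.70 to 14.2). Satb1, a chromatin organiser, had 5 (4.76 to 11.2). Meis1, a homeobox cofactor of stem cells and megakaryocytes, had 4 at 205 to 363 kb, the strongest with 11.96 and 10.1, which held RUNX and AP-1 matches. Ets1 had 4 with a highest mean of 12.02, and Jun, a subunit of AP-1, had 4 up to 9.90. Id2 had 3, of which the highest mean was 19.1 and the lowest 5.66. Hes1, a target of Notch signalling, had 3 of 5.17 to 6.16, Ebf1, the early B cell factor, had 2 (5.26 and 12.4), and Runx2 had 1 at 305 kb (7.70). The rest of the list, Gata2, Fli1, Tal1 and Nfe2 among them, was nearest to no member.

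Developmental genes included Sall3 with 9 members (3.65 to 11.99), Tbx3 with 8 (4.40 to 12.5), and Nr2f2 with 5 (4.53 to 18.004), all 3 genes for transcription factors of embryonic tissues. Tshz1 had 5 (4.66 to 14.7), and Sall1, Nfia and Dach1 had 4 each, with highest means of 13.8, 11.5 and 5.80. Sox9, known for enhancers at very long range, had 2 at 234 and 764 kb, as did Irx3, Nfib and Zic1, and Meis2 and Sox6 had 1 each. Of the neural adhesion genes, Cdh12 and Robo2 had 6 each, at 580 to 774 kb and at 369 to 643 kb, and the rest had 3 or fewer. Cdh4 and Flrt2 had 3, Cdh20 and Pcdh17 had 2, and Cdh6, Epha6, Epha7, Kirrel3, Lrfn5, Negr1, Sema3a and Slit2 had 1, with a highest mean of 22.2 at Epha7. Outside the receptor loci, 901 members lay upstream of their nearest gene and 909 downstream (49.8% and 50.2%), while 62.2% of the regions at 20 to 200 kb lay upstream.

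Motif shares at the summits differed from those in the DNA beside them. Within 100 bp of the summit, the RUNX motif TGTGGT was found in 29.3% of members (576), against 13.6% of windows of the same length 1 kb to each side. The PU.1-type ETS motif GAGGAAG was in 26.6% (523) against 6.42%, the ETS motif (CAGGAAG or CCGGAAG) in 20.8% (410) against 7.39%, the C/EBP motif TTGCNNAA in 18.4% (362) against 10.9%, and the AP-1 motif TGANTCA in 11.1% (218) against 6.399%. Over the windows of all shared regions the 5 shares were 22.02%, 22.3%, 22.1%, 13.4% and 9.20%. At 20 to 200 kb, the closest class, they were 25.3%, 25.1%, 21.8%, 15.9% and 10.9%. The ETS share was 20.1% in replicate 1 and 20.8% in replicate 2 by their own regions (mean 20.5%, SD 0.47, n = 2). Either ETS form was in 42.3% of members and 13.3% of the flanks, and an ETS form together with RUNX in 11.3% and 2.26%. At 20 to 200 kb the same groups held 41.2% and 10.4%. Matches lay close to the summit, with the centre of the nearest ETS, PU.1-type and RUNX match within 30 bp in 53.7%, 57.4% and 49.0% of the windows that held one. In the flanking windows those shares were 33.3%, 38.3% and 34.6% from the window's centre.

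The GATA motif AGATAA, a form of the site of the megakaryocyte and erythroid factor GATA1, was less frequent than in the flanks only. It was in 10.2% of members (200), 9.34% of the regions at 20 to 200 kb and 7.88% of all shared regions, but in 13.6% of the flanks. The base composition of the flanks was not measured, so its part in this difference was not tested. Of the members' GATA matches, 25.0% lay within 30 bp of the summit. The TAL1 and GATA composite, which contains part of the GATA motif, was in 1.12% of members and 1.27% of flanks. The NF-E2 motif, which contains the AP-1 motif, was in 7 members and 2 of 3938 flanking windows. MEF2 matches were in 3.81% and 4.27%, MYB (AACNGTT) in 4.01% and 3.71%, IRF in 4.93% and 3.45%, and KLF (CCACACCC) in 2.69% and 1.22%. NRF1 was in 1 member, and REST and HNF1, motifs of factors best known from neurons and liver, were in none. All motifs were searched on both strands, and the ETS and PU.1-type patterns differ in their first bases, so they cannot match the same position. No motif of the 16 was found in 371 members (18.8%), against 21.96% of the regions at 20 to 200 kb and 46.9% of the flanks.

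The CTCF motif was in 111 members (5.64%), 7.20% of the regions at 20 to 200 kb, 5.82% of all shared regions and 0.0508% of the flanks (2 windows). It lay closest to the summit of all, at a median of 9.5 bp, with 87.4% of matches within 30 bp. Members with the motif had a median fold enrichment of 8.16 (7.85 and 8.50 in the replicates), against 7.15 without it (6.79 and 7.68). The median with the motif was the higher in each replicate. The SD between the replicates (0.46 with and 0.63 without it) holds the shift towards replicate 2, so it does not measure the spread of this difference. Of the 111 members with the motif, 29 lay in receptor loci. Beyond 1000 kb the RUNX share was 40.2%, against 27.1% at 200 to 300 kb, and the ETS share was 4.88% against 24.4%. Of those 82 far members, 52 lay outside the receptor loci. In the loci, 42.8% of all members held RUNX, and 100 of the 159 members there had another copy in the genome.

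**Figure D4:**
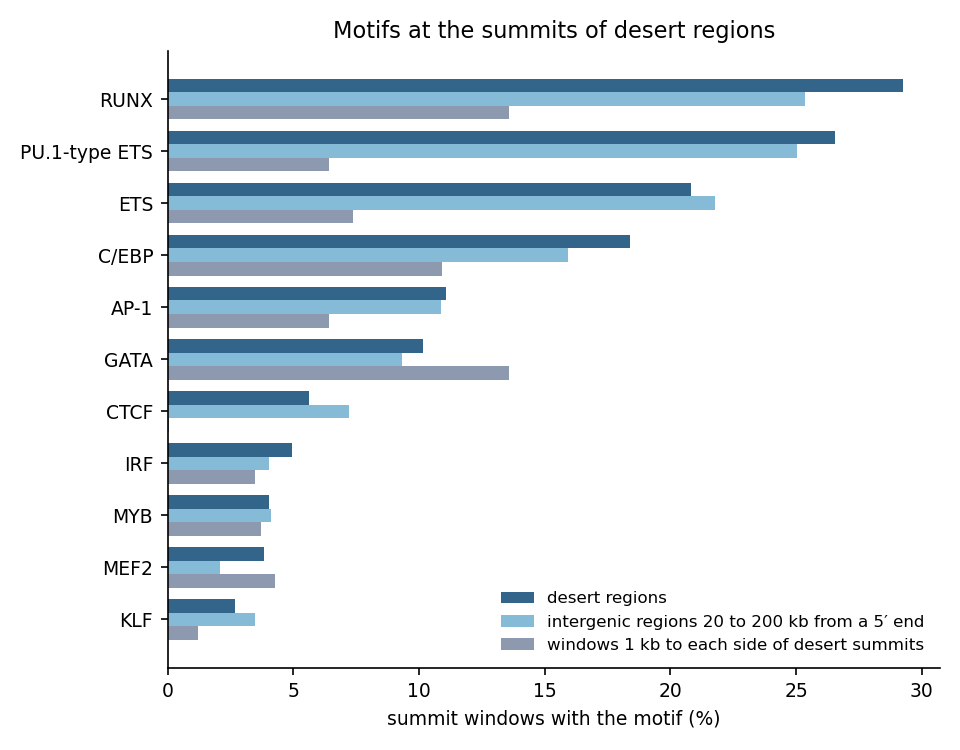
Share of 201 bp windows with a match to each of 11 motifs (x axis, %), for the 1969 members (dark), the regions at 20 to 200 kb (light) and the windows 1 kb to each side of the members' summits (grey). RUNX and both ETS forms are at 20.8% to 29.3% in members and 6.42% to 13.6% in the flanks, and GATA is higher in the flanks.

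Base composition followed distance. Median GC was 48.8% at 20 to 200 kb, 47.3% at 200 to 300 kb, 45.8% at 300 to 500 kb, 44.8% at 500 to 1000 kb and 42.8% beyond 1000 kb. Windows with the GC and CpG content of a CpG island (at least 55% GC and a CpG ratio of at least 0.6 of that expected) were 1.47% of members (29), against 3.00% at 20 to 200 kb and 16.7% of all shared regions. Repeats touched 59.6% of the members' windows and covered 12.1% of their bases on average, against 58.8% and 12.3% at 20 to 200 kb.

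The members in antigen receptor loci had a layout of their own. In Igh, 57 of 91 members lay past the 3′ end of the nearest segment, 45 of them within 500 bp, and each of these 45 stood at a different segment. Their side is partly set by the rule, which leaves out summits inside a segment (21 of the 134 shared regions in Igh lay in a gene body). The V segment's 3′ end is where the recombination signal begins, with the heptamer CACAGTG as its most conserved part. The heptamer followed within 12 bases of the segment in 27 of the 45, beside 108 (58.4%) of all 185 annotated Igh V segments. Of the 93 segments of the family Ighv1, 25 had such a member, and 21 of the 25 had the heptamer, beside 72.0% of the whole family. Of the 16 segments of the family Ighv8, 11 had one, and none of the 11 had the exact heptamer, which is found at 1 Ighv8 segment in all. The Ighv8 members past the segment had mean fold enrichments of 4.56 to 12.3.

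Igh members before a segment were different. There were 34, at a median of 3465 bp from the segment's 5′ end, and 14 of them held the CTCF motif (41.2%), against 4 of the 57 past a segment (7.02%). These 14 lay 790 bp to 23671 bp before the segment. Their median of mean fold enrichment was 9.47, against 6.00 for the other 20. Over the whole group before a segment the replicate medians were 7.86 and 8.68, and past a segment 6.11 and 6.86. Only these medians were apart: mean fold enrichments of single members ran from 3.26 to 16.6 before a segment and from 3.83 to 15.1 past one. The strongest Igh member, 3561 bp before Ighv1-46 at chr12:114981534-114982122, had 16.4 and 16.8 and held a RUNX match. RUNX matches were in 33 of the 57 members past a segment and in 17 of the 34 before one. Another copy in the genome was found for 27 of the 57 and 16 of the 34, so these matches are not independent of each other.

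In Tcra/Tcrd the order was reversed. Of 63 members, 54 lay before the 5′ end of the nearest segment, at a median of 178 bp, and 37 within 500 bp, which is where V segment promoters lie. Only 9 lay past a 3′ end. The strongest, 39 bp before Trav16n at chr14:53350824-53351791, had 12.6 and 11.95, and the one 103 bp before Trav4-4-dv10 had 10.9 and 12.1. The CTCF motif was in 11 of the 54. The mouse Tcra/Tcrd locus contains large duplicated blocks, and 49 of the 54 members had another copy in the genome, so their values cannot be assigned to 1 segment. In Igh, 43 of 91 had one. The kappa locus, with 182 segments, held only 6 shared regions, 4 of them members of 3.56 to 5.42.

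**Figure D5:**
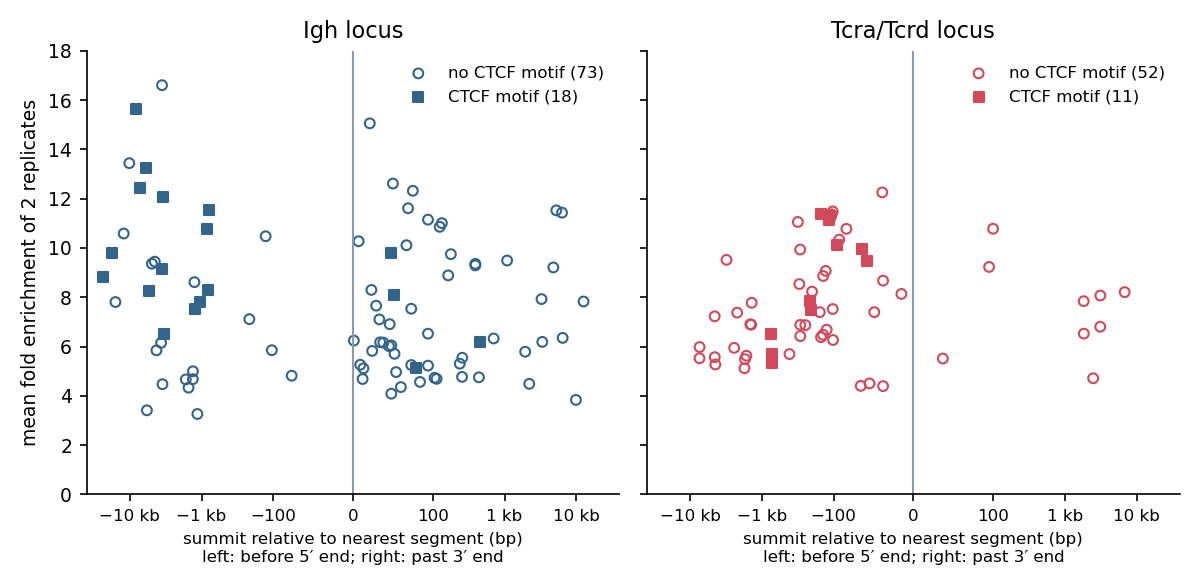
Each point is a member in Igh (left) or Tcra/Tcrd (right), by the distance of its summit from the nearest segment (x axis, bp, linear within 100 bp and logarithmic beyond) and its mean fold enrichment over 2 replicates (y axis). Filled squares hold the CTCF motif. Igh members gather past the 3′ end and Tcra/Tcrd members before the 5′ end.

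Lymphocyte markers were open in part. Both lists had a smaller share of open promoters than the 55.2% over all coding genes, as did the megakaryocyte list (6 of 16). Of 13 early B cell genes, 5 had a shared region at the promoter: Vpreb1 (mean fold enrichment 17.99), which encodes part of the surrogate light chain, Il7r (10.01), Ebf1 (9.17), Blnk (7.10) and Cd79b (3.85). Those without one included Cd79a, Rag1, Rag2, Pax5, Igll1, Dntt and Cd22, Rag1 and Rag2 being the genes of the recombinase itself. Of 10 T cell genes, 2 had one, Cd247 (6.12) and Zap70 (4.67), while Cd3d, Cd3e, Cd3g, Cd4, Cd8a, Lck, Bcl11b and Tcf7 had none. The part of lymphocytes in the receptor locus values was not tested.

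Starts of non-coding genes accounted for few members outside the loci. The 32 members within 1 kb of a long non-coding gene's 5′ end had a median fold enrichment of 7.06, and the 30 at pseudogenes had 9.08. The pseudogene group includes the members at Gm21769, Gm7895 and Gm5596, whose other genome copies keep their values from being assigned. The strongest at a long intergenic gene was 138 bp from the start of Gm38563 at chr15:61157387-61157874, with 11.9 and 13.6. Gm5086 had 12.2 and 12.4 at 105 bp, and Gm26901 had 11.3 and 9.81 at 98 bp with 62.2% GC in its window.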

How the data were processed

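Primary megakaryocytes were profiled by ATAC-seq in 2 samples of 1 group. Per the labels, peaks were mapped on mm10, and the aligner, peak caller and read filters are not given in the sources used here. The authors deposited peak lists. In each deposited list, column 7 holds the fold enrichment (a ratio), column 8 the −log10 p-value of the peak, which ranked nothing here, and the last column the summit's offset from the peak's start. No scaling between samples is stated, so values were used as deposited, and 0 value columns were left unmapped.

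Within a sample, peaks sharing 1 bp or more were joined, and a shared region was the union of merged regions overlapping between samples by at least 1 bp. Gene bodies and 5′ ends came from GENCODE M21, and sequence from RefSeq's GRCm38. Eligible sequence is all sequence outside gene bodies and assembly gaps beyond the distance limit. Windows of 201 bp at the summits were searched for 16 motifs on both strands, and with BLAST 2.17.0 for mitochondrial DNA (at least 80% identity over 100 bases) and other genome copies (at least 95%, on all members and on 2232 regions at 20 to 200 kb, taken at even spacing). A receptor locus is a run of at least 10 receptor segment genes less than 1 Mb apart. The region rules were tested on simulated peaks and recovered the regions placed.

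The values are descriptions of 2 samples without a test, since no contrast between groups exists. The members and lists were chosen with earlier results of these data known, and the marker lists and the Igh details after the values were seen. Named regions were the 10 strongest, the 5 farthest, the 5 nearest to the limit on each side, the strongest 2 per motif, the richest 5 stretches, the 10 genes nearest to most members and every list gene nearest to a member. Some genes that this rule or the marker lists hold are not reported here. Further stretches, the weakest members and those with the largest change between replicates were added after seeing the values. Alternatives covered the peak list, peak strength, overlap, distance limit, gene types, chromosomes, motif window, copies and each replicate alone.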

Additional observations from a re-analysis of the deposited data

How the results depend on the processing

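Values called moved here changed by more than the SD between the replicates, or for the number of regions by more than 1.5 times. That SD, over n = 2, was 0 for median GC, 0.043 for the CTCF share and 0.043 for the percent of regions. Even a small change therefore counts as moved for these 3. With the IDR-thresholded list of each sample the members fell to 818 (2.26% of shared regions), with a median fold enrichment of 10.3, a CTCF share of 6.48% and a median GC of 46.8%. Peaks of at least 4-fold enrichment gave 2.95% of regions, 85.5% of a replicate's desert regions found in both and a CTCF share of 6.10%. A 50% reciprocal overlap gave 76.5% found in both. A limit of 100 kb gave 4272 members (6.28%), an ETS share of 22.2% and 47.3% GC. A limit of 500 kb gave 407 (0.599%), with 77.5% found in both, 6.88% CTCF, 16.2% ETS and 44.3% GC. Counting 5′ ends of genes of every type left 75 (0.110%), with a median of 8.23, 75.2% found in both, 10.7% CTCF, 24.0% ETS and 45.3% GC. The replicated-peaks list of the pooled samples gave 3168 (3.34%), a median of 5.96, 4.83% CTCF and 19.3% ETS, and the conservative list 2.70%, a median of 9.06 and 6.26% CTCF. Windows of 50 bp to each side gave 5.33% CTCF, 14.6% ETS and 47.5% GC, chromosome X added gave 5.56% CTCF, and leaving out mitochondrial and copy matches gave 5.01% CTCF. Leaving out the receptor loci, chosen after seeing the data, gave 2.67% of regions and 4.53% CTCF. Each replicate alone gave 2398 to 2504 members, 3.07% to 3.14% of regions, a median of 5.95 to 6.62, 5.17% to 5.23% CTCF, 20.1% to 20.8% ETS and a median GC of 46.3%. The cause of these shifts was not tested. The share found in both with copies left out was not run, since copies were searched only in shared regions. Unknown depth limits every statement on regions not found. No paired analysis was possible because there is only 1 group.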

Other observations

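Outside the receptor loci, the count of desert regions per Mb of eligible sequence differed between chromosomes. Chromosome 13 was the highest with 6.85 per Mb (144 regions in 21.02 Mb), followed by chromosome 9 with 5.34 (88 regions) and chromosome 2 with 5.25 (153 regions). Chromosome 5 was the lowest with 2.16 (61 regions in 28.2 Mb), and chromosome 12 had 2.63 (91 regions) once the 91 Igh members were set aside. Median fold enrichment ran from 6.59 on chromosome 6 to 8.41 on chromosome 15. These are counts of shared regions, with no test between chromosomes.

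Antigen receptor loci differed in how many regions they held and in how many of those were desert regions. The T cell receptor beta locus held 39 shared regions, none of them a member, and the immunoglobulin lambda locus held 1. The T cell receptor gamma locus held 10, of which 1 was a member, with fold enrichments of 12.7 and 14.4.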
